A study of Equus caballus with 10 samples.

Results

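Hyaluronan is a long unsulfated glycosaminoglycan of the pericellular and extracellular matrix. In tendon it lubricates gliding surfaces and holds proteoglycan aggregates, and its fragments can act on cells as signals of damage. It is made at the plasma membrane by the hyaluronan synthases, which draw on UDP-glucuronic acid and UDP-N-acetylglucosamine, and it is bound by receptors and link-module proteins. It is broken down by hyaluronidases and by CEMIP. The genes described here were chosen as 10 named members of this pathway, namely the synthases HAS1, HAS2 and HAS3, the breakdown genes HYAL1, HYAL2, HYAL3 and CEMIP, the receptors CD44 and LYVE1, and the secreted binding protein TNFAIP6. Of these, 9 were among the 29196 genes of the expression table and all 9 passed the filter on low values, while HYAL1 was not analysed here.

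RNA was sequenced from equine tenocytes, the fibroblasts of tendon, taken from the superficial digital flexor tendon of 5 Thoroughbred or Thoroughbred-type horses. The cells of each horse were cultured in 3D bovine collagen gels for 14 days, and every culture received PF-06650833 daily at 100 nM. PF-06650833 inhibits IRAK-4, a kinase that relays signals from the IL-1 receptor. In the first group, called PF alone, nothing else was added. In the second, called IL-1β + PF, the cultures also received 17 ng/ml of IL-1β every 3 to 4 days. There were 5 libraries per group, 1 from each horse, and the horses are called donors 1 to 5. The cells were passaged primary cells, and since no library here lacked PF-06650833, each difference below is that of adding IL-1β in the presence of the inhibitor.

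Values are variance-stabilized log2 expression, on which a gene with 0 reads stands at 3.433 and differences between low values are compressed. Estimated depths were 26409885 to 35752002 reads per library, with overlapping ranges in the groups. As a check that IL-1β acted, IL6, an inflammatory cytokine, stood between 4.78 and 9.42 in PF alone and between 13.96 and 16.12 in IL-1β + PF, and its highest value in PF alone was that of donor 3 (log2 fold change 8.79, adjusted p = 1.07e-04 from limma). Fibroblast and tendon markers made up summed normalized counts of 988400 to 1511000 in PF alone and 314900 to 1292000 in IL-1β + PF, lower in 5 of 5 donors. Of 10 tested markers, SCX and MKX fell in both fits, and COL1A1, COL1A2 and THY1 only with the donor as a block, which made 5 (adjusted p = 0.0147, 0.0169 and 0.0367 from limma). DCN did not pass the test in either fit but was higher in 5 of 5 donors (log2 fold change 1.01), and LUM had a log2 fold change of 0.33. Of that list the tenocyte marker TNMD was listed at 0 in all 10 libraries. The T cell markers were also listed at 0 throughout, the blood endothelial markers summed to at most 50.4 normalized counts, and the leukocyte marker PTPRC had at most 3 estimated reads. The macrophage list summed to 61.3 to 1767 normalized counts in PF alone and 171.2 to 1944 in IL-1β + PF, with AIF1 listed at 0 throughout and CD68 higher (log2 fold change 1.70, adjusted p = 0.00795 from limma). That sum, made up mostly of CD14 and CD68, was higher in IL-1β + PF in 5 of 5 donors. Also on the list, CSF1R and MRC1 had at most 1 estimated read in any library, CD163 at most 5 and ITGAM at most 29. Within the list CD14 was listed at 0 in donors 3, 4 and 5 of PF alone and in donor 3 of IL-1β + PF, and had up to 1466 estimated reads in the others. In bulk RNA, fewer cells of a type and less RNA per cell cannot be told apart.

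Between PF alone and IL-1β + PF, 2 of the 9 hyaluronan genes were differentially expressed, against 6.68% of the 17992 tested genes. HAS2 rose, where 3.11% of all tested genes did, and CEMIP fell, where 3.57% did. This took an adjusted p below 0.05 from limma together with a log2 fold change of 1 or more in size. The same 2 genes were counted with the donor as a block, where 8.26% of all tested genes were, 4.01% higher and 4.25% lower. CD44 also passed on its adjusted p but not on the size of its change, which made 3 of 9 genes past the adjusted p alone, against 15.5% of all tested genes. With the donor as a block HAS3 and HYAL3 joined them, 5 of 9 against 22.2%. The 2 groups did not overlap for 4 of the 9 genes (HAS2, CEMIP, CD44 and HYAL3), against 12.7% of all tested genes. In 7 of the 9 genes the difference had the same sign in all 5 donors, 4 higher and 3 lower in IL-1β + PF, against 32.7% of all tested genes. The median log2 fold change of the 9 genes was 0.18, and that of all tested genes was -0.01.

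**Figure D1:**
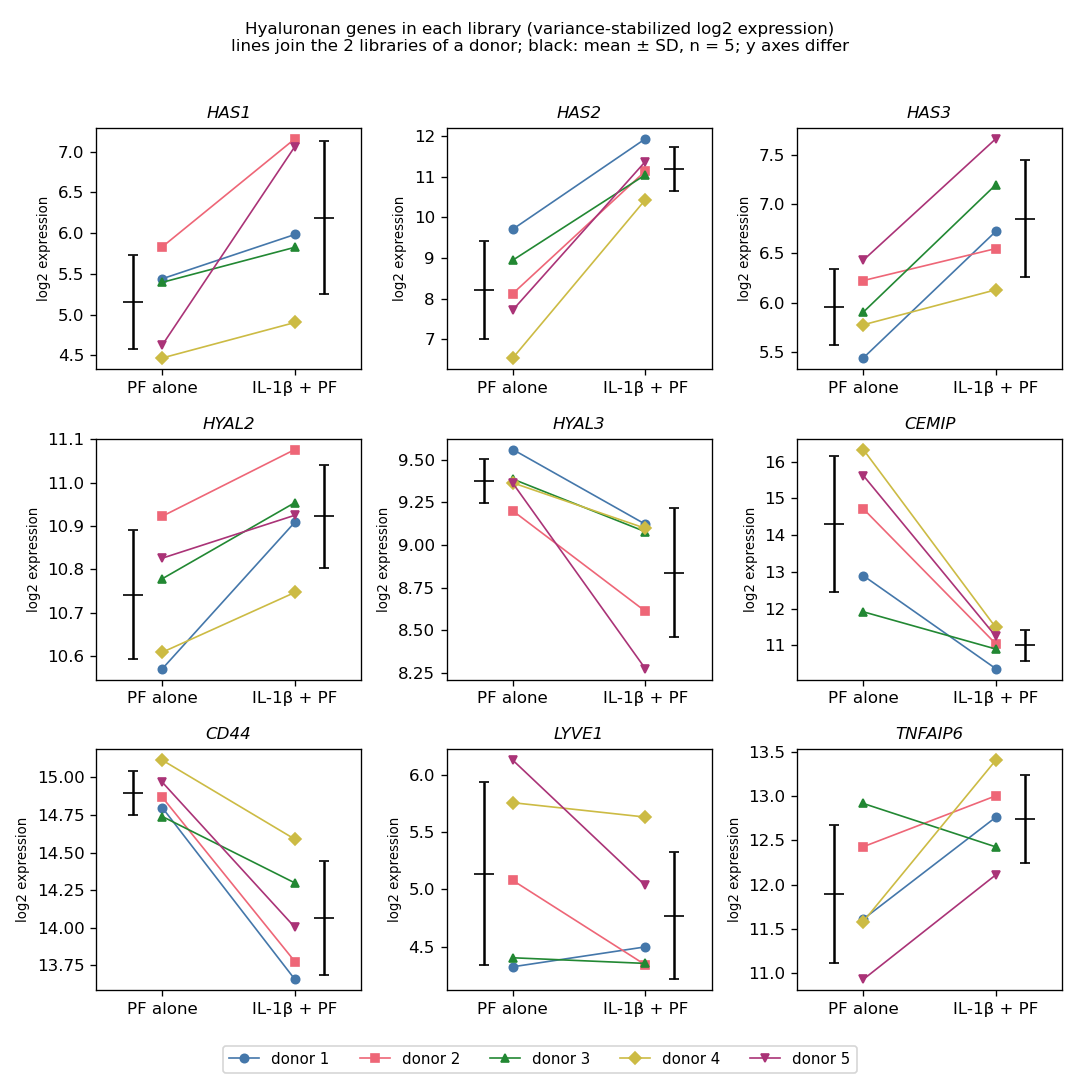
Variance-stabilized log2 expression of the 9 hyaluronan genes (y axis, a scale of its own in each panel) in the libraries of PF alone and of IL-1β + PF, with lines joining the libraries of a donor and black marks for the mean ± SD (n = 5). HAS2 rose in all 5 donors to between 10.43 and 11.93, CEMIP fell in all 5 donors to between 10.37 and 11.49, and LYVE1 and TNFAIP6 were higher in some donors and lower in others.

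Among the synthases, HAS2 had the clearest separation of the groups. HAS2 is the synthase that embryos need for heart development, and it is the form most studied in connective tissue cells. Its log2 expression in PF alone was 9.71, 8.12, 8.95, 6.54 and 7.72 in donors 1 to 5, and in IL-1β + PF it was 11.93, 11.14, 11.05, 10.43 and 11.37. The lowest library in IL-1β + PF thus stood above the highest in PF alone. The group means were 8.21 ± 1.21 (SD, n = 5) and 11.18 ± 0.54 (SD, n = 5), a log2 fold change of 2.98 (SE, the standard error, 0.51, 95% confidence interval 1.86 to 4.09, adjusted p = 0.00336 from limma). On normalized counts with 1 added, the geometric mean was 8.59-fold higher in IL-1β + PF. The increase was 4.77-fold in donor 1, 8.67-fold in donor 2, 4.44-fold in donor 3, 18.8-fold in donor 4 and 13.9-fold in donor 5. Donor 4, with the lowest HAS2 in PF alone, thus had the largest increase, and the donor with the lowest value was the same in both groups.

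HAS1 and HAS3 were measured on few reads, at most 107 and 156 estimated reads in any library. Like HAS2, both encode membrane enzymes that make hyaluronan. HAS1 stood at 5.44, 5.83, 5.40, 4.47 and 4.63 in donors 1 to 5 in PF alone and at 5.98, 7.16, 5.83, 4.90 and 7.06 in IL-1β + PF. It was higher in IL-1β + PF in 5 of 5 donors, with an increase that was largest in donor 5, but the groups overlapped. Its log2 fold change was 1.03 (95% confidence interval 0.06 to 2.00) and it was not differentially expressed (adjusted p = 0.144 from limma, and 0.0532 with the donor as a block). On log2(normalized count + 1) the log2 fold change was 1.55, and HAS1 was again not counted (adjusted p = 0.158 from limma). Further, 15 fits with no donor term were each run on the data minus a single library or a single donor. HAS1 was counted in 1 of these 15, at a log2 fold change of 1.35 (adjusted p = 0.0355 from limma). That fit lacked donor 4 of IL-1β + PF, the lowest library of the higher group, so the difference had to grow. The smallest log2 fold change, 0.68, came without donor 5 (adjusted p = 0.443 from limma).

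HAS3 was at 5.44, 6.22, 5.90, 5.77 and 6.43 in donors 1 to 5 in PF alone and at 6.72, 6.55, 7.20, 6.13 and 7.67 in IL-1β + PF. It too was higher in 5 of 5 donors with overlapping groups, and the increase was 3.50-fold, 3.14-fold and 2.76-fold in donors 1, 3 and 5 but 1.34-fold and 1.42-fold in donors 2 and 4. The log2 fold change was 0.90 (95% confidence interval 0.23 to 1.57, adjusted p = 0.0720 from limma). With the donor as a block the adjusted p was 0.0240 from limma, with the log2 fold change still short of the minimum on the variance-stabilized scale. On log2(normalized count + 1) the log2 fold change was 1.15. There HAS3 was counted with the block, a fit chosen later (adjusted p = 0.0260 from limma), and not without it (adjusted p = 0.0721 from limma). Of the 15 fits described for HAS1, HAS3 was counted in 1, at a log2 fold change of 1.08 (adjusted p = 0.0287 from limma). That fit again lacked donor 4 of IL-1β + PF, the lowest library of its group for HAS3 too, so the difference had to grow. The smallest log2 fold change among the 15 was 0.70. Whether the changes of the 3 synthases differ from each other was not tested.

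Among the breakdown genes, CEMIP fell. CEMIP encodes a secreted hyaluronan-binding protein that fibroblasts need to depolymerize hyaluronan. With PF alone its log2 expression was 12.90, 14.72, 11.91, 16.33 and 15.62 in donors 1 to 5, and in IL-1β + PF it was 10.37, 11.04, 10.90, 11.49 and 11.25. The groups did not overlap, and the donors lay far apart in PF alone and close together in IL-1β + PF. The means were 14.29 ± 1.85 (SD, n = 5) and 11.01 ± 0.42 (SD, n = 5), a log2 fold change of -3.28 (SE 0.72, 95% confidence interval -4.87 to -1.70, adjusted p = 0.0116 from limma, and 0.00394 with the donor as a block). On normalized counts with 1 added, the geometric mean was 9.83-fold lower in IL-1β + PF. By donor the fall was 5.85-fold, 12.9-fold, 2.03-fold, 28.9-fold and 20.9-fold in donors 1 to 5. Donor 3, which had the lowest CEMIP in PF alone, had the smallest fall.

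The call of CEMIP depended on which donor was left out of the fit with no donor term. Without donor 1, 3 or 4 it was counted. Without donor 2 the adjusted p was 0.0631 and without donor 5 it was 0.0561 from limma, with log2 fold changes of -3.19 and -3.01. With the donor as a block it was counted in all 5 fits that each left out a donor. Some markers of contractile cells and some of tenocytes varied among the donors together with CEMIP. With PF alone, ACTA2, which encodes smooth muscle actin, was at 15.67, 16.09, 13.97, 16.90 and 17.05 in donors 1 to 5, so that donors 4 and 5 were highest and donor 3 lowest for both genes. In the same libraries SCX stood at 10.72, 10.91, 10.23, 12.18 and 11.54, and COL1A1 at 18.54, 18.65, 18.07, 19.51 and 18.92. These 2 tenocyte markers, named after their values were seen, had the donors in the same order as CEMIP. None of the other tested tenocyte markers had that order. Of them, DCN and LUM were highest in donor 3, THY1 was highest in donor 2, COL1A2 was lowest in donor 5 and FMOD was lowest in donor 1. RGS5 and MCAM were also highest in donor 2. The summed level of 4 smooth muscle and pericyte markers was 17420 to 169500 normalized counts in PF alone and 26510 to 63200 in IL-1β + PF, lower in 4 of 5 donors. Of these markers RGS5 fell (log2 fold change -1.96, adjusted p = 0.0106 from limma). ACTA2 had a log2 fold change of -1.01 and fell with the donor as a block (adjusted p = 0.0334 from limma, against 0.227 without it), while MCAM had a log2 fold change of 0.34 and did not pass the test. The part of this in the fall of CEMIP was not tested.

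HAS2 and CEMIP were ordered almost oppositely across the donors in PF alone. From high to low, the order was donors 1, 3, 2, 5 and 4 for HAS2 and donors 4, 5, 2, 1 and 3 for CEMIP. These are 5 libraries and no correlation was computed. With IL-1β + PF donor 4 still had the lowest HAS2 and the highest CEMIP, and donor 1 the highest HAS2 and the lowest CEMIP. Donors 4 and 5 had the largest changes of both genes and donors 1 and 3 the smallest. Each change is computed from the level in PF alone, so the size of a change and that level are not independent.

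Neither of the tested hyaluronidase genes reached the minimum fold change. HYAL2, which encodes a hyaluronidase anchored to the cell surface that cuts long chains into fragments, stood between 10.57 and 10.92 in PF alone and between 10.75 and 11.08 in IL-1β + PF. It was higher in 5 of 5 donors, by 0.10 to 0.34 on the log2 scale, with overlapping groups. The log2 fold change was 0.18 (95% confidence interval -0.03 to 0.39, adjusted p = 0.236 from limma), so that an interval of this width holds no change as large as the minimum fold change. HYAL3, a related hyaluronidase gene, was at 9.56, 9.20, 9.39, 9.37 and 9.36 in donors 1 to 5 in PF alone and at 9.12, 8.61, 9.08, 9.10 and 8.27 in IL-1β + PF. All 5 donors were lower in IL-1β + PF and the groups did not overlap, with the largest difference in donor 5. The log2 fold change was -0.54 (95% confidence interval -0.92 to -0.16, adjusted p = 0.0599 from limma), and the adjusted p was 0.0303 with the donor as a block. HYAL2 and HYAL3 each overlap the gene NAA80 in a RefSeq table of another horse assembly. How reads were divided among these 3 genes is not known here, so their values are less certain.

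**Figure D2:**
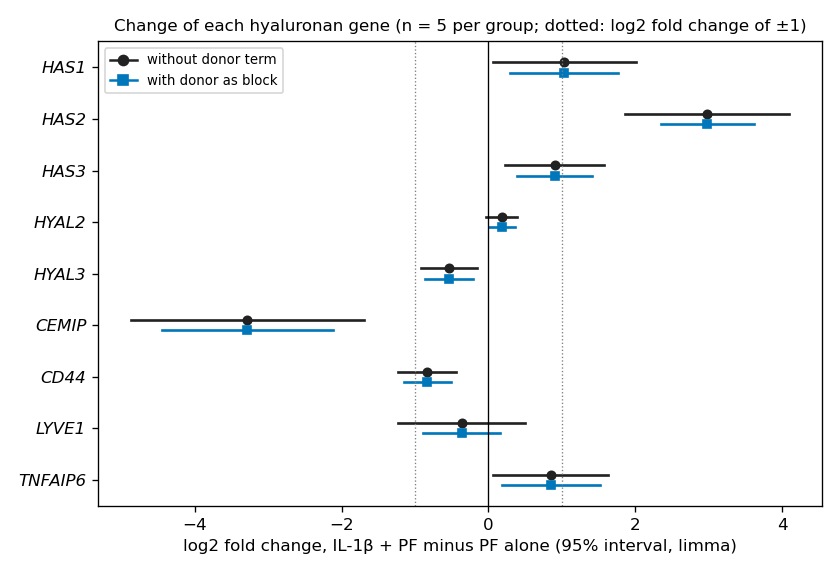
Log2 fold change of each hyaluronan gene (x axis, IL-1β + PF minus PF alone) with its 95% confidence interval from limma, without a donor term (black circles) and with the donor as a block (blue squares), n = 5 per group. HAS2 at 2.98 and CEMIP at -3.28 lie beyond the dotted lines at a log2 fold change of 1 with their whole intervals, and the intervals of the others reach within those lines.

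Of the receptor genes, CD44 was lower in IL-1β + PF. CD44 encodes the main cell surface receptor for hyaluronan, which fibroblasts and leukocytes use for adhesion and uptake. Its log2 expression was 14.80, 14.87, 14.74, 15.11 and 14.97 in donors 1 to 5 in PF alone and 13.66, 13.77, 14.30, 14.59 and 14.00 in IL-1β + PF. The groups did not overlap, and the donors lay closer together in PF alone, at 14.90 ± 0.15 (SD, n = 5) against 14.06 ± 0.38 (SD, n = 5). The log2 fold change was -0.83 (SE 0.18, 95% confidence interval -1.23 to -0.44, adjusted p = 0.0103 from limma), which is below the minimum fold change. Donors 1, 2 and 5 fell 2.21-fold, 2.14-fold and 1.95-fold, donor 4 fell 1.44-fold, and donor 3 fell by 0.44 on the log2 scale. The donors with the smallest falls, donors 3 and 4, were the highest in IL-1β + PF. Each fall is computed from the level in IL-1β + PF, so its size and that level are not independent. The values are summed over transcripts of the gene, so CD44 splice forms were not separated.

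LYVE1, which encodes a hyaluronan receptor of lymphatic endothelium and some macrophages, was near the limit of detection, with 4 to 48 estimated reads per library. With PF alone it stood at 4.32, 5.08, 4.40, 5.76 and 6.13 in donors 1 to 5, and in IL-1β + PF at 4.50, 4.34, 4.35, 5.63 and 5.03. Donors 4 and 5 were highest in both groups, and the groups overlapped. LYVE1 did not pass the test (log2 fold change -0.37, 95% confidence interval -1.23 to 0.50, adjusted p = 0.591 from limma, and 0.286 with the donor as a block). Of 3 other lymphatic endothelial markers with a row in the table, FLT4 and MMRN1 were listed at 0 in all 10 libraries, while PROX1 was between 6.10 and 8.65. The summed level of these markers was thus that of PROX1 alone, at 48.7 to 379.6 normalized counts in PF alone and 109.1 to 376.8 in IL-1β + PF.

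TNFAIP6, also called TSG-6, encodes a secreted link-module protein that transfers the heavy chains of inter-α-inhibitor onto hyaluronan and is known as a gene induced by TNF and IL-1. Its log2 expression in PF alone was 11.61, 12.43, 12.92, 11.58 and 10.93 in donors 1 to 5, and in IL-1β + PF it was 12.76, 13.00, 12.43, 13.41 and 12.11. It was higher in 4 of 5 donors and lower by 0.49 in donor 3, whose library in PF alone was the highest of its group for TNFAIP6 and, as given above, for IL6. The groups overlapped. The log2 fold change was 0.85 (95% confidence interval 0.06 to 1.63) and the gene was not differentially expressed (adjusted p = 0.137 from limma, and 0.0723 with the donor as a block). Without donor 3 the log2 fold change was 1.18 and TNFAIP6 was counted (adjusted p = 0.0454 from limma, and 0.00702 with the donor as a block). Without only the library of donor 3 in PF alone it was counted as well, at 1.10 (adjusted p = 0.0415 from limma). Donor 3 was the donor that went the other way, so the difference had to grow without it. Of the 15 fits described for HAS1, TNFAIP6 was counted in these 2 only. The smallest log2 fold change among the 15, 0.60, came without donor 4 (adjusted p = 0.350 from limma).

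**Figure D3:**
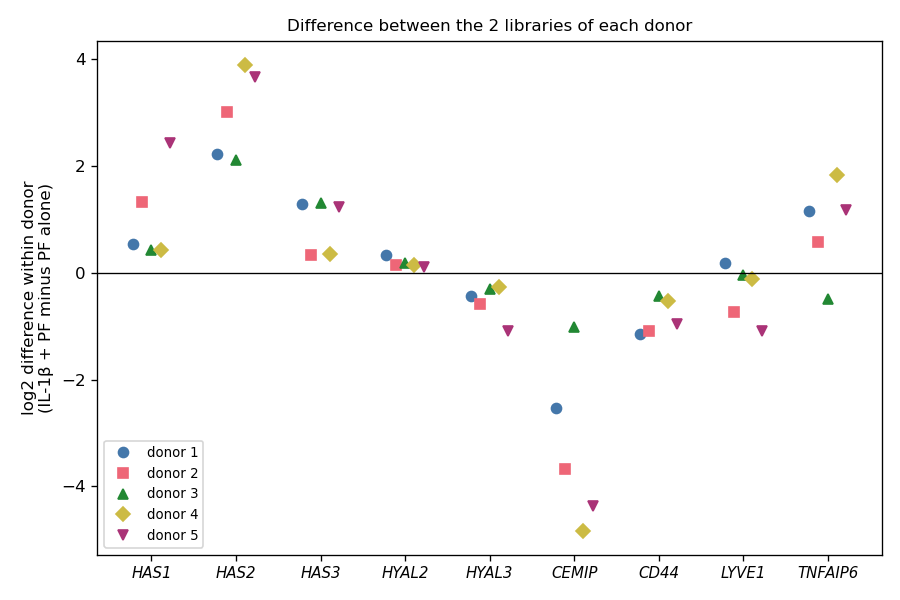
Difference in log2 expression between the libraries of each donor (y axis, IL-1β + PF minus PF alone) for the 9 hyaluronan genes, with 1 symbol per donor. All 5 donors lie above 0 for HAS1, HAS2, HAS3 and HYAL2 and below 0 for HYAL3, CEMIP and CD44, and for CEMIP donor 3 (-1.01) lies far from donor 4 (-4.84).

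The genes also differed in how much of their variation followed the groups. The groups took 76% of the sum of squares over the 10 libraries for HAS2, 72.1% for CD44 and 65.2% for CEMIP. For HYAL3 and HAS3 the shares were 53.1% and 50.1%. The donors took the larger share for LYVE1 (78.5%, against 8.09% for the groups), HYAL2 (56.2% against 36.2%) and HAS1 (44.7% against 35.4%). With 5 donors and 2 groups, noise alone gives the donors a larger share than the groups. The shares of donors and groups therefore cannot be compared directly. For TNFAIP6 the groups took 34.3%, the donors 37% and the remainder 28.8%. With 1 library per donor and group, this remainder holds both differences between donors in their response and the noise of single libraries, which cannot be told apart. That remainder was the largest of the 9 genes and was 4.52% for HAS2.

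Around these genes, 33 other genes of hyaluronan metabolism were listed by their role, of which 31 had a row in the table and 27 were tested. Of these, 5 were differentially expressed, 3 higher and 2 lower in IL-1β + PF, against 6.68% of all tested genes (3.11% higher and 3.57% lower), and the same numbers were found with the donor as a block, against 8.26%. Their median log2 fold change was 0.30. The groups did not overlap for 5 of the 27, against 12.7% of all tested genes.

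Of the 6 tested genes that supply the sugar nucleotides, 0 were differentially expressed by limma, with or without the donor as a block, although 4 had an unadjusted p below 0.05 in each fit, where 29.7% of all tested genes had one without the block and 36.2% with it. Their median log2 fold change was 0.48. UGP2, which makes UDP-glucose, and UGDH, which oxidizes it to UDP-glucuronic acid, passed the adjusted p alone and are named for that reason after their values were seen. UGP2 stood between 11.47 and 11.75 in PF alone and between 11.96 and 12.41 in IL-1β + PF, a log2 fold change of 0.62 (adjusted p = 0.00268 from limma). UGDH had a log2 fold change of 0.63 (adjusted p = 0.0332 from limma), and both genes were higher in 5 of 5 donors. The other 4 had adjusted p-values between 0.0507 and 0.854 from limma.

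Of 12 tested genes of proteins that hold or join hyaluronan in the matrix, 2 rose and 2 fell. ACAN, the gene of aggrecan, the large proteoglycan that binds hyaluronan, was between 11.83 and 13.54 in PF alone and between 5.03 and 7.75 in IL-1β + PF. It fell in 5 of 5 donors (log2 fold change -6.29, SE 0.52, adjusted p = 9.80e-05 from limma). HAPLN3 encodes a link protein, which ties such proteoglycans to hyaluronan. It was lower in 5 of 5 donors (log2 fold change -1.79, SE 0.46, adjusted p = 0.0231 from limma), although the groups overlapped. BCAN, the gene of brevican, another hyaluronan-binding proteoglycan, rose by a log2 fold change of 1.31 (SE 0.25, adjusted p = 0.00604 from limma) on 5 to 18 estimated reads per library in PF alone and 28 to 75 in IL-1β + PF. HAPLN2, a further link protein gene, rose by 1.08 (SE 0.17, adjusted p = 0.00210 from limma), with 69 to 119 estimated reads against 193 to 299. The gene of versican, VCAN, stood at 14.17 ± 0.58 (SD, n = 5) and 14.98 ± 0.62 (SD, n = 5), with overlapping groups (adjusted p = 0.126 from limma). Of the genes for inter-α-inhibitor, whose heavy chains TNFAIP6 transfers, ITIH2 and AMBP were listed at 0 in all 10 libraries, ITIH1 had at most 10 estimated reads, and ITIH5, a further heavy chain gene of the family, had a log2 fold change of 0.32 (adjusted p = 0.746 from limma).

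Of 3 further tested genes of hyaluronan breakdown, CEMIP2 rose. CEMIP2, listed in the table under its older name TMEM2, encodes a membrane protein related to CEMIP. With PF alone it stood at 12.99, 13.06, 13.40, 11.34 and 12.41 in donors 1 to 5, and in IL-1β + PF at 13.79, 14.00, 14.00, 14.21 and 13.83. The groups did not overlap, and the log2 fold change was 1.33 (SE 0.32, 95% confidence interval 0.62 to 2.03, adjusted p = 0.0180 from limma). Donor 4, which had the highest CEMIP in PF alone, had the lowest CEMIP2 in that group. The lysosomal genes HEXA and GUSB, whose products help remove the sugars of hyaluronan fragments, had log2 fold changes of -0.13 and 0.18, and neither was differentially expressed (adjusted p = 0.528 and 0.313 from limma). Of 6 tested genes of other receptors, 0 were differentially expressed by limma in either fit, and 0 had an unadjusted p below 0.05 without the block and 2 with it. Without the block they had adjusted p-values between 0.417 and 0.960 from limma.

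**Figure D4:**
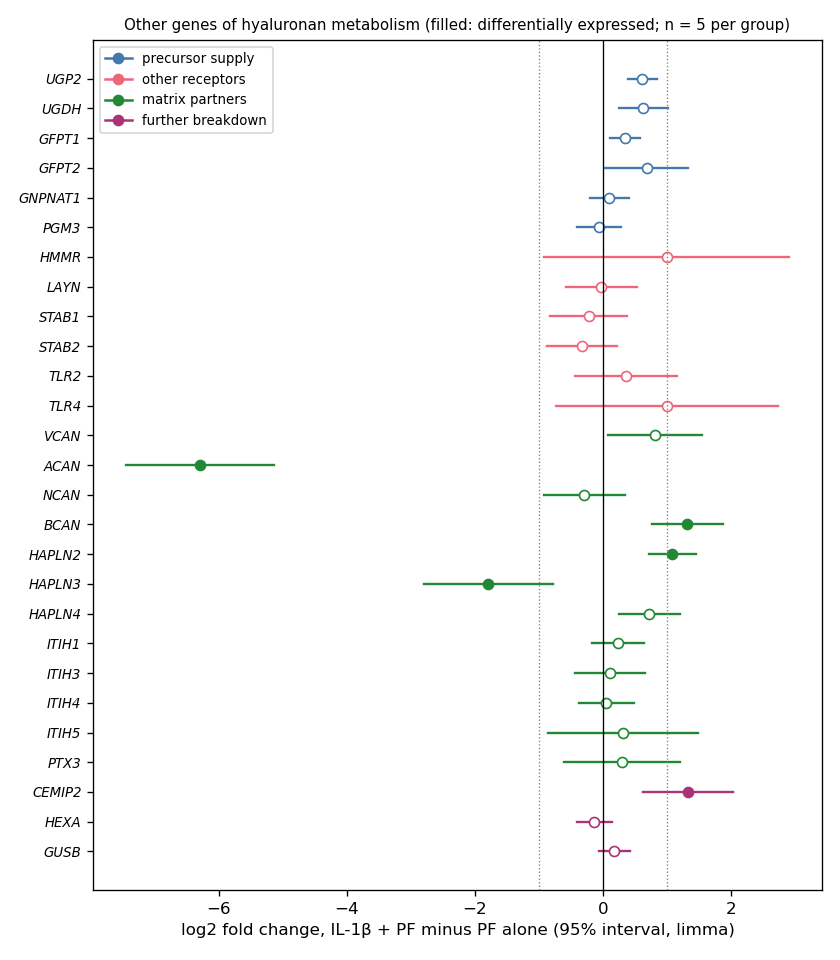
Log2 fold change (x axis, IL-1β + PF minus PF alone, with the 95% confidence interval from limma, n = 5 per group) of the 27 tested other genes of hyaluronan metabolism, coloured by role, with filled points for the 5 differentially expressed genes. ACAN and HAPLN3 lie left of the dotted line at -1, and BCAN, HAPLN2 and CEMIP2 lie right of the dotted line at 1.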

How the data were processed

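Libraries of polyA RNA from 5 donors in each of 2 groups were used. Salmon (version 1.8), with GC-bias correction, was used by the authors to assign reads to EquCab3.0 transcripts, and tximport to sum them by gene. The table the authors deposited holds log2 values, stabilized for variance, of 29196 genes in 10 libraries. The transformation is not named in the sources used here and was recognised from the lowest value, 3.433, shared by all libraries. Inverting it gave normalized counts. In each library the most frequent value among the low ones above 0 was taken as the count of 1 read. Depths and reads per gene so estimated are approximate, since 65.9% to 83.7% of low values came within 0.15 of whole reads (30% if spread evenly). Counting and normalization cannot be redone from these values, and no count test was run.

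A linear model in limma (version 3.58.1, in R version 4.3.3), trended for mean expression and without a donor term, as the study's methods name none, covered the 17992 genes with a read in 5 or more libraries. Thresholds follow the study's methods. Adjusted p-values are Benjamini-Hochberg over all tested genes. The column names carry the donor line, so that the donor block is a true pairing. Libraries of a donor also deviated together from their group means (correlations of 0.367 to 0.506 across genes in 5 pairs). The average of -0.107 over 20 pairs of different donors follows from taking deviations from group means and is no separate contrast. In simulated data for this comparison with 17864 genes, 192 of 200 changed genes and 0 unchanged genes were counted. The simulation held no differences between donors, and its changes all exceeded the minimum fold change and spared genes with low counts. It therefore checks the running of the fit and does not give its power or error rate for the donors here. Named are all members, the listed pathway genes that were differentially expressed, IL6, and markers used to check the cells, and, after their values were seen, UGP2, UGDH, VCAN, the ITIH genes, AMBP, HEXA, GUSB and those said so in the text. The members and lists were chosen with earlier results of these data known. Alternatives were the donor block, thresholds, filters, scales, normalizations, variance models, and leaving out each library or donor. Gene lengths were not used, so levels were not compared between genes. A pathway gene that had been listed is not reported here and was left out of the list's counts. No sequences are shown.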

Additional observations from a re-analysis of the deposited data

Results flagged for a closer look

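Among 28 groups of 5 libraries, 1 held a value that stood well apart from the rest. These groups covered the 9 hyaluronan genes and the 5 differentially expressed pathway genes, and chance alone gives about 1.4 such groups. HAPLN2 was at 8.61 in donor 1 in IL-1β + PF (299 estimated reads), against 8.05 to 8.20 in the other donors. None of the 18 groups of the 9 hyaluronan genes themselves held such a library.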

How the results depend on the processing

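The direction of each of the 9 tested hyaluronan genes was the same in all 34 alternatives run. Alternatives that changed only a threshold or the filter, or only added the donor block, left the log2 fold changes as they were. Their direction could therefore not differ. HAS2 was counted in 34 of 34, with log2 fold changes of 2.56 to 3.35 and adjusted p-values from limma of 5.87e-04 to 0.0263. CEMIP was counted in 31 of 34 (log2 fold changes of -3.88 to -2.78, adjusted p of 9.88e-04 to 0.0631), and not at an adjusted p below 0.01 or without donor 2 or donor 5. HYAL2 and LYVE1 were counted in 0 of 34. Of the other genes, HAS3 was counted in 5, TNFAIP6 in 3, HAS1 and CD44 in 2 each and HYAL3 in 1, CD44 and HYAL3 only where the minimum fold change was dropped. HAS1 was also counted with array weights (log2 fold change 1.25, adjusted p = 0.0475 from limma), and HAS3 on log2(normalized count + 1) with the replicate block (1.15, adjusted p = 0.0260). Median centring moved the median of all tested genes from -0.01 to 0.02. At an adjusted p below 0.01, 1 hyaluronan gene, 3 other pathway genes and 719 of all genes were counted. Without a minimum fold change, 8 other pathway genes and 2782 of all genes were. Combining the replicate block with dropping that minimum, an alternative chosen after seeing the data, gave 5 hyaluronan genes, 10 other pathway genes and 3996 of all genes. The replicate block on log2(normalized count + 1), also chosen later, gave 3 hyaluronan genes, 6 other pathway genes, TLR4 being the added one, and 1809 of all genes. With the minimum fold change the replicate block changed the call of no hyaluronan gene and of no other pathway gene, and gave 1486 genes in all, against 1202. When a library or a donor was left out, in 15 fits, 1 to 4 hyaluronan genes, 2 to 5 other pathway genes and 747 to 1410 of all genes were counted. The replicate block without each donor, chosen later, gave 2 to 3, 5 to 6 and 1174 to 1661. Fewer samples lower the power of these fits, and the cause of the other changes was not tested. HAS1, HAS3, BCAN and LYVE1 had at most 107, 156, 75 and 48 estimated reads per library, and how far depth limited their results was not tested.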

Other observations

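In a RefSeq table of another horse assembly, each link protein gene lies next to a gene of a hyaluronan-binding proteoglycan, HAPLN1 next to VCAN, HAPLN2 next to BCAN, HAPLN3 next to ACAN and HAPLN4 next to NCAN. These pairs were looked up after the values had been seen. HAPLN3 and ACAN both fell and HAPLN2 and BCAN both rose in IL-1β + PF. HAPLN4 had a log2 fold change of 0.72 (adjusted p = 0.0456 from limma, higher in 5 of 5 donors), below the minimum fold change, and NCAN reached no more than 6 estimated reads. HAPLN1 was not tested, with at most 3 estimated reads. Whether neighbouring genes moved together more than other genes was not tested.

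With the donor as a block, the receptor genes TLR4 and HMMR passed the adjusted p on the variance-stabilized scale but lay just under the minimum fold change, and they are named after their values were seen. TLR4, a receptor reported to sense hyaluronan fragments, was higher in IL-1β + PF in 5 of 5 donors (log2 fold change 1.00, adjusted p = 0.441 from limma without the block and 0.0153 with it). HMMR, a hyaluronan-binding protein that also belongs to the mitotic spindle, was higher in 5 of 5 donors (log2 fold change 0.99, adjusted p = 0.494 from limma without the block and 0.0446 with it). In the RefSeq table of another horse assembly HMMR overlaps the gene NUDCD2, so its values are less certain. On log2(normalized count + 1), where low values are compressed less, the block gave TLR4 a log2 fold change of 1.29, at which it was counted (adjusted p = 0.0325 from limma), and HMMR 1.16 (adjusted p = 0.0566 from limma). Donors differed widely in both, with SDs of 1.64 and 1.88 in PF alone.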
